A study of Homo sapiens and Mus musculus with 16 samples.

Results

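Actins and tubulins were examined as 10 of the 22314 genes with a row in the mRNA table of SK-HEP-1 cells. They were chosen by name: the cytoplasmic actins ACTB and ACTG1, the non-muscle alpha-actinins ACTN1 and ACTN4, the alpha-tubulins TUBA1A, TUBA1B and TUBA1C, and the beta-tubulins TUBB, TUBB3 and TUBB6. All 10 had a row and all 10 were above 1 FPKM (fragments per kilobase of exon, scaled to the fragments mapped in the library) in every library, so none was lost to a filter on low values. SK-HEP-1, a human liver cancer line, was grown in medium with serum and received either a fruiting body ethanol extract of the fungus *Antrodia cinnamomea* (AcFBE, 0.5 mg/ml) or DMSO alone. Poly(A) RNA was taken after 2 h (2U untreated, 2T treated) and after 4 h (4U untreated, 4T treated), giving 1 library per condition. Levels are therefore given as values without a replicate error or a test, and a ratio of 2 libraries compares those libraries and not the conditions. FPKM values do not hold read numbers, so no counting error is given for a value. In bulk RNA, fewer cells that carry a transcript and less transcript per cell cannot be told apart.

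Actin monomers assemble into filaments that give a cell its shape and carry contraction, and the beta and gamma forms are the 2 cytoplasmic isotypes made by nearly all cells. Alpha-actinins cross-link those filaments and anchor them at adhesions. Alpha- and beta-tubulin pair into dimers that build microtubules, the tracks of transport and the fibres of the spindle, and free dimers are known to set the lifetime of tubulin mRNA. Free actin is known to hold back the coactivators of SRF, a factor that binds the CArG box in promoters of many cytoskeletal genes. Since actins and tubulins are made in large amounts by most cells, their mRNAs are often used as reference genes.

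The FPKM sums of the 4 libraries ranged from 786224 to 845681, and the 10 genes took 2.90 to 3.21% of them. The table listed 8454 to 10691 genes above 0. Both 4-h libraries had no value between 0 and 0.2 FPKM, whereas 2U had 2656 such genes and 2T had 1173. Genes between 0.2 and 1 FPKM in both 2U and 2T shared a single ratio of 1.08 in 94 of 1343 cases, within 0.002 on the log2 scale. In the other pairs of libraries the commonest ratio held 6 to 22 of 1436 to 2663 such genes. The 2-h and the 4-h values thus differ in how low values were listed, and comparisons between the times cross that difference. Over 4075 genes, 2T and 4T had a Pearson r of 0.982 on the log2 scale, and the other pairs had 0.893 (2U and 4T) to 0.936 (2U and 4U). Of the 7 hepatocyte markers, 5 (ALB, APOA1, APOB, TTR and HNF4A) were listed at 0 in all 4 libraries, as were 5 of 5 endothelial markers, whereas SERPINA1 was at 8.59 to 18.7 FPKM. Mesenchymal VIM ranged from 6465 to 13625 FPKM, whereas COL1A2 was at 0 in all and COL1A1 at most 0.271 FPKM. Epithelial KRT18 ranged from 4581 to 6254 FPKM, whereas CDH1 was at 0 in all and EPCAM at most 0.396 FPKM. Neuronal markers summed to at most 0.374 FPKM (5 of 6 at 0 in all), and markers of striated muscle to at most 0.485 FPKM (4 of 5 at 0 in all).

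How alike the paralogs are decides what reads, taken here as 35 bases long, can tell between them. The starts of their coding sequences are therefore shown. They were read 5′ to 3′ from the reference transcripts of GENCODE on GRCh37, from base 1 of the start codon to base 30, with capitals at bases that are not the same in all genes of the family.
ACTB: atggaTgaTgaTatcgccgcgctCgtcGtC
ACTG1: atggaAgaAgaGatcgccgcgctGgtcAtT
TUBA1A: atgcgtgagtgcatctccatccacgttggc
TUBA1B: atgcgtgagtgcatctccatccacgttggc
TUBA1C: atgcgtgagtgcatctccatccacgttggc
TUBB: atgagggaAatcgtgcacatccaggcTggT
TUBB3: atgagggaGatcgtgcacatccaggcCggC
TUBB6: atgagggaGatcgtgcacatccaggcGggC
The actins differed at 6 of these 30 bases, the beta-tubulins at 3 and the alpha-tubulins at 0.

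Over the whole coding sequence, ACTB and ACTG1 differed at 99 of 1128 bases and shared an identical run of 59 bases, longer than a read. The stretch where they differed most, bases 49 to 78 with 8 differences in capitals, is the following.
ACTB: tgcaaGgcCggCttCgcGggCgacgaTgcC
ACTG1: tgcaaAgcTggTttTgcTggGgacgaCgcT
A read from there differs between the 2 actins by more than the 2 mismatches that the alignment allowed. Coding identity was 91.2% between the 2 actins, 97.2% between TUBA1A and TUBA1B, 96.8% between TUBA1B and TUBA1C and 95.9% between TUBA1A and TUBA1C. It was lower among the beta-tubulins, at 81.7% between TUBB and TUBB3, 81.0% between TUBB and TUBB6 and 87.5% between TUBB3 and TUBB6. ACTN1 and ACTN4 were 79.0% identical.

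Every 35-base window of each gene's reference transcript was then compared with all annotated transcripts, allowing 2 mismatches. Of the TUBA1B windows, 94.5% lay that close to a transcript of another gene, and 76.0% lay close to TUBA1C and 71.9% to TUBA1A. TUBA1A shared 81.7% of its windows with some other gene, and TUBA1C shared 56.3%, its long 3′ end being its own in large part (20.2% of its noncoding windows were shared). ACTB shared 72.8% of its windows and ACTG1 69.1%. ACTB had more windows in common with POTEE, a gene that carries an actin copy (44.3%), than with ACTG1 (28.8%). The listed levels of POTEE and its relatives POTEF, POTEKP and POTEM were at most 0.560 FPKM in every library. TUBB shared 63.6% of its windows with another gene but only 18.5% with a protein-coding one, and its pseudogene TUBBP1 alone was close to 56.7%. TUBB3 shared 53.0% and TUBB6 38.2%, whereas ACTN4 shared 24.5% and ACTN1 11.1%. Of the TUBB3 windows, 33.6% lay close to TUBB4 (now TUBB4A), 29.4% to TUBB6 and 15.8% to TUBB2C (now TUBB4B). How reads that fit several genes were divided is not given in the sources used here. Levels within the alpha-tubulins, within the beta-tubulins and between the actins are uncertain to that extent.

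**Figure D1:**
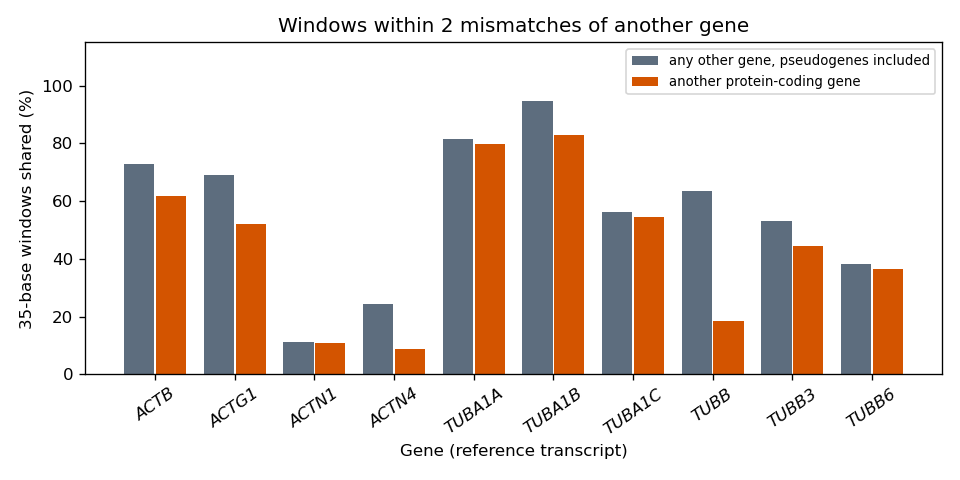
Percent of the 35-base windows of each gene's reference transcript (y axis) that lie within 2 mismatches of a transcript of any other gene, pseudogenes included (grey), or of another protein-coding gene (orange). TUBA1B has the highest share, 94.5%, and ACTN1 the lowest, 11.1%.

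The genes lie on 8 chromosomes (GRCh37). The 3 alpha-tubulin genes are neighbours on chromosome 12: TUBA1B at chr12:49521565-49525180, TUBA1A at chr12:49578469-49582863 and TUBA1C at chr12:49582519-49668383, the last on the plus strand and the others on the minus strand. The annotated gene spans of TUBA1A and TUBA1C overlap. ACTB lies at chr7:5566040-5603533 and ACTG1 at chr17:79476439-79490873, both on the minus strand with 6 exons. ACTN1 lies at chr14:69340845-69446157 on the minus strand and ACTN4 at chr19:39138289-39222229 on the plus strand. TUBB lies at chr6:30685212-30693315, TUBB3 at chr16:89987800-90005169 and TUBB6 at chr18:12307668-12344319, all on the plus strand.

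ACTB encodes beta-actin, the actin of the cell cortex and leading edge. It had 653 FPKM in 2U and 2305 in 2T, then 2198 in 4U and 1827 in 4T. The untreated 2-h library was the lowest of the 4 and the other libraries lay close together. The log2 ratio of 2T over 2U was 1.82 and that of 4T over 4U was -0.27, so the treated library was the higher one at 2 h and the lower one at 4 h. The 2 untreated libraries differed almost as much as 2T and 2U, with a log2 ratio of 1.75 for 4U over 2U.

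ACTG1 encodes gamma-actin and had 962 FPKM in 2U and 2951 in 2T, then 2551 in 4U and 4029 in 4T. Both treated libraries were above the untreated library of the same time, with log2 ratios of 1.62 at 2 h and 0.66 at 4 h. Again 2U was the lowest, and 4U over 2U had a log2 ratio of 1.41. The table carries the mark "HKG" beside this gene, an abbreviation that it does not explain.

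The alpha-actinins were far less abundant. ACTN1, the alpha-actinin of stress fibres and focal adhesions, had 1.34 FPKM in 2U and 6.22 in 2T, then 5.61 in 4U and 6.27 in 4T. Its log2 ratios were 2.21 for 2T over 2U, 0.16 for 4T over 4U and 2.06 for 4U over 2U, so this low gene had 2U alone at the bottom, as the actins had. ACTN4, the related isoform found along stress fibres and at the cell edge, had 12.0 FPKM in 2U and 13.7 in 2T, then 23.2 in 4U and 11.3 in 4T. Here 4U stood above the other libraries, and the log2 ratios were 0.19 at 2 h and -1.04 at 4 h.

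The alpha-tubulins were the most abundant of the 10 genes. TUBA1B had 9430.3 FPKM in 2U and 7105 in 2T, then 7865 in 4U and 6669 in 4T. TUBA1C had 6435 FPKM in 2U and 5169 in 2T, then 5304 in 4U and 5069 in 4T. TUBA1A, the isotype known from developing neurons, had 4835 FPKM in 2U and 3377 in 2T, then 3503 in 4U and 3187 in 4T. In all 3 genes 2U was the highest library and 4T the lowest, and the other 2 libraries lay between. The log2 ratios of 2T over 2U were -0.41, -0.32 and -0.52 in the same order, and those of 4T over 4U were -0.24, -0.07 and -0.14. The neuronal genes MAP2, NEFL, NEFM, SYP and ELAVL3 were listed at 0 in every library in which TUBA1A was measured.

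TUBB, the beta-tubulin made by most cells, had 2984 FPKM in 2U and 2416 in 2T, then 2246 in 4U and 2243 in 4T. It was highest in 2U like the alpha-tubulins, and the 4-h libraries hardly differed. TUBB3, the isotype used as a marker of neurons and found in many tumour lines, had 219.9 FPKM in 2U and 150.1 in 2T, then 222 in 4U and 109 in 4T. Both treated libraries were below both untreated ones, with log2 ratios of -0.55 at 2 h and -1.02 at 4 h, and the untreated libraries differed by only 0.01. TUBB6, a beta-tubulin of many non-neuronal tissues, had 658 FPKM in 2U and 878 in 2T, then 601 in 4U and 801 in 4T. Both treated libraries were above both untreated ones, with log2 ratios of 0.42 at 2 h and 0.41 at 4 h against -0.13 for 4U over 2U.

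**Figure D2:**
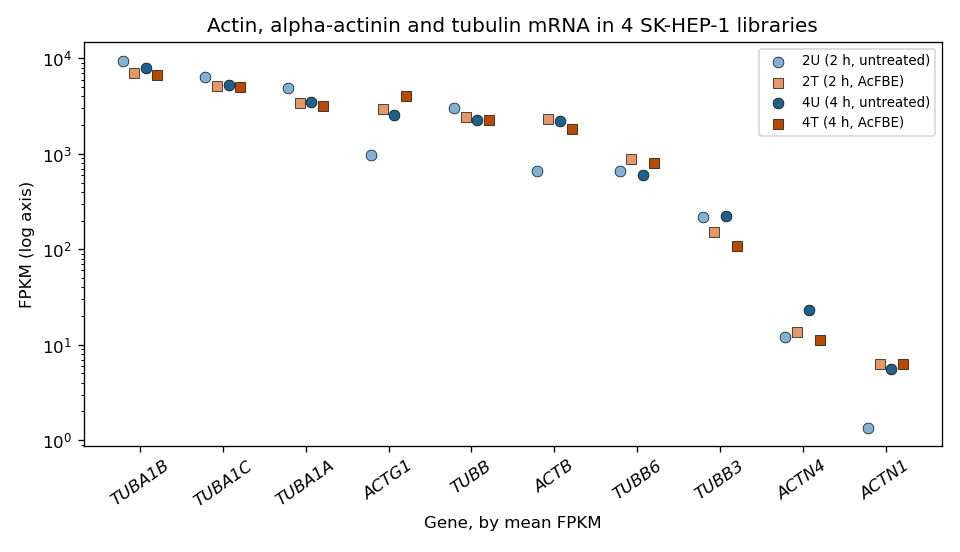
FPKM on a log axis (y axis) of the 10 genes, ordered by mean FPKM, in the libraries 2U and 4U (blue circles, untreated) and 2T and 4T (orange squares, AcFBE), 1 point per library. The 2U point is the lowest for ACTB, ACTG1 and ACTN1 and the highest for TUBA1A, TUBA1B, TUBA1C and TUBB.

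By mean FPKM the order was TUBA1B (7767), TUBA1C (5494), TUBA1A (3725), ACTG1 (2624), TUBB (2472), ACTB (1746), TUBB6 (735), TUBB3 (175), ACTN4 (15.1) and ACTN1 (4.86). The ranges over the 4 libraries of neighbours in this order did not overlap at the top (TUBA1B, TUBA1C and TUBA1A) nor from TUBB6 down. From TUBA1A to TUBB6 each gene's range overlapped that of the next, so these neighbours could not be ordered beyond their spread. TUBB was nevertheless above ACTB in 4 of 4 libraries. Short transcripts had higher FPKM across all genes: Spearman's rho of level and reference transcript length was -0.41 to -0.47 over 4287 to 4826 genes in each library, a description across genes that share a library. The ACTN1 and ACTN4 transcripts, at 3722 and 4990 bases, were the longest of the 10, and the part of length in their low levels was not tested.

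Members past 2-fold were counted beside all genes. At 2 h, 3 of 10 were higher in 2T by at least 2-fold (ACTB, ACTG1 and ACTN1), where 17.5% of the 4325 genes with at least 1 FPKM in both libraries were. None was lower by 2-fold, where 17.2% of all genes were. At 4 h, 0 of 10 were higher, where 15% of 4779 genes were, and 2 of 10 were lower (ACTN4 and TUBB3), where 25% were. Both lay at the edge of 2-fold. In the untreated comparison of 4U over 2U, 3 of 10 were higher, where 15.8% of 4628 genes were, and 0 were lower, where 9.31% were. Those 3 were again ACTB, ACTG1 and ACTN1, and the comparisons of 2T and of 4U with 2U share that library. Of 4T over 2T, 0 of 10 were past 2-fold, where 2.38% of 4655 genes were higher and 3.52% lower. Among genes with at least 100 FPKM in both libraries, the level of 8 of the 10, 8.28% of 507 genes were higher by 2-fold and 10.7% lower at 2 h, and 15.1% of 530 genes were higher and 9.43% lower at 4 h.

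The median log2 ratio of the 10 genes was -0.06 at 2 h, beside -0.03 over all 4325 genes, and -0.10 at 4 h, beside -0.31 over all 4779 genes. The small median at 2 h joined 2 kinds of member: the 2 actins had a median of 1.72 and the 3 alpha-tubulins one of -0.41. At 4 h the ratios of all genes were centred below 0, though less so among genes with at least 100 FPKM in both libraries (median -0.09), and the 2 members past 2-fold lay at percentiles 24.0 (ACTN4) and 24.5 (TUBB3) of all genes, and ACTB at -0.27 lay at percentile 51.1. Relative to the median of all genes at 4 h, ACTB, TUBA1A, TUBA1B, TUBA1C and TUBB turned from below 0 to above it, and ACTN4 and TUBB3 stayed below 0 by less than 2-fold. In 3 of the 10 genes (ACTG1, ACTN1 and TUBB6) both treated libraries were above both untreated ones, where 24.4% of the 4075 genes with at least 1 FPKM throughout were. In 4 of 10 (TUBA1A, TUBA1B, TUBA1C and TUBB3) both were below, where 35.5% of these genes were. Both shares lay near those of all genes. The count of 4 fell to 1 with the ratios centred on the median of all genes, TUBB3 alone being left. Centring shifts all genes alike, and the share of all genes after it is not given here. Under each of 8 settings, the reported values included, ACTG1 and TUBB6 were above 0 at both times and TUBB3 below 0. The settings vary scaling, pseudocount and filter, and all use the same pairs of libraries. The filters leave the ratio of these genes as reported.

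**Figure D3:**
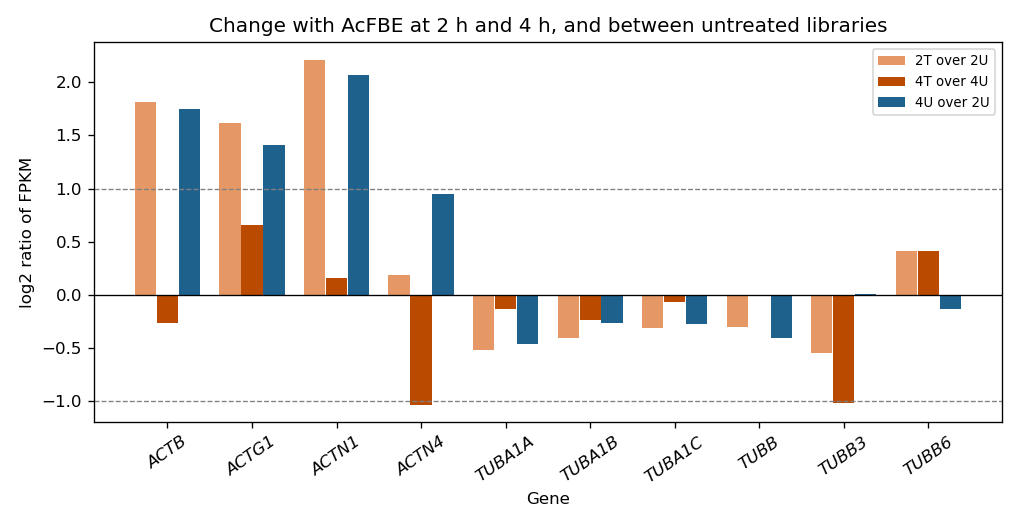
Log2 ratio of FPKM (y axis) of each gene for 2T over 2U, 4T over 4U and 4U over 2U, 1 bar per pair of libraries, with dashed lines at 2-fold. ACTB, ACTG1 and ACTN1 pass 2-fold upwards in both comparisons with 2U, and ACTN4 and TUBB3 just pass it downwards for 4T over 4U.

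The place of 2U was examined over all genes. In 1562 genes that reached 10 FPKM in each library, 2U was at least 2-fold below each of the other 3 libraries in 66 (4.23%) and at least 2-fold above them in 57 (3.65%). The same held for 4U in 37 and 16 genes, for 2T in 2 and 1 and for 4T in 8 and 1. ACTB and ACTG1 were among the 66, and ACTN1, which is under the 10 FPKM minimum, had the same form. CFL1, which severs actin filaments, was the gene whose profile over the 4 libraries was nearest to the summed actins, at a Euclidean distance of 0.249 of the centred log2 levels. TNFRSF6B, a decoy receptor, followed at 0.266 and CALR, a chaperone of the endoplasmic reticulum, at 0.267. Nearest to the 6 summed tubulins were ATP5G1 and NDUFA3, of the mitochondrial ATP synthase and complex I, at 0.0593 and 0.0757, and C1orf57 at 0.0839. These distances rest on 4 libraries and describe the profiles only.

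Shares within a family do not depend on how a library is scaled. The alpha-tubulin shares hardly moved: TUBA1B took 44.7 to 47.2%, TUBA1C 31.1 to 34.0% and TUBA1A 21.0 to 23.4% of the 3 genes' summed FPKM. TUBA1B and TUBA1A are also the 2 members with the most shared windows. ACTB took 40.5% of the 2 actins in 2U and 43.9% in 2T, then 46.3% in 4U but 31.2% in 4T, so 4T was the library with the lowest beta share. The ratio of ACTG1 to ACTB was 1.47, 1.28, 1.16 and 2.21 in the same order, above 1 in all 4 libraries.

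Among the 3 beta-tubulins, TUBB took 77.3% in 2U and 70.1% in 2T, then 73.2% in 4U and 71.1% in 4T. TUBB6 took 17.0, 25.5, 19.6 and 25.4% in the same order, and TUBB3 took 5.69, 4.36, 7.22 and 3.47%. With all listed beta-tubulins in the total, TUBB took 50.005, 51.3, 43.2 and 51.8%, so that its share was then higher in the treated library at both times and not lower. TUBB6 thus had a larger share, and TUBB3 a smaller one, in both treated libraries than in both untreated ones. The ratio of TUBB6 to TUBB3 was 2.99 in 2U and 2.71 in 4U against 5.85 in 2T and 7.32 in 4T. TUBB6 and TUBB3 share windows with each other and with other beta-tubulins, so these shares and this ratio carry the limit of undivided reads. ACTN1 took 10.0% of the 2 alpha-actinins in 2U and 19.5% in 4U against 31.2% in 2T and 35.7% in 4T, at levels of a few FPKM. Of the pairs examined, the alpha- to beta-tubulin ratio varied little, from 4.54 in 2T to 5.43 in 4U. The ratio of the 6 tubulins to the 2 actins was 15.2 in 2U and 3.09 to 4.16 in the other libraries.

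**Figure D4:**
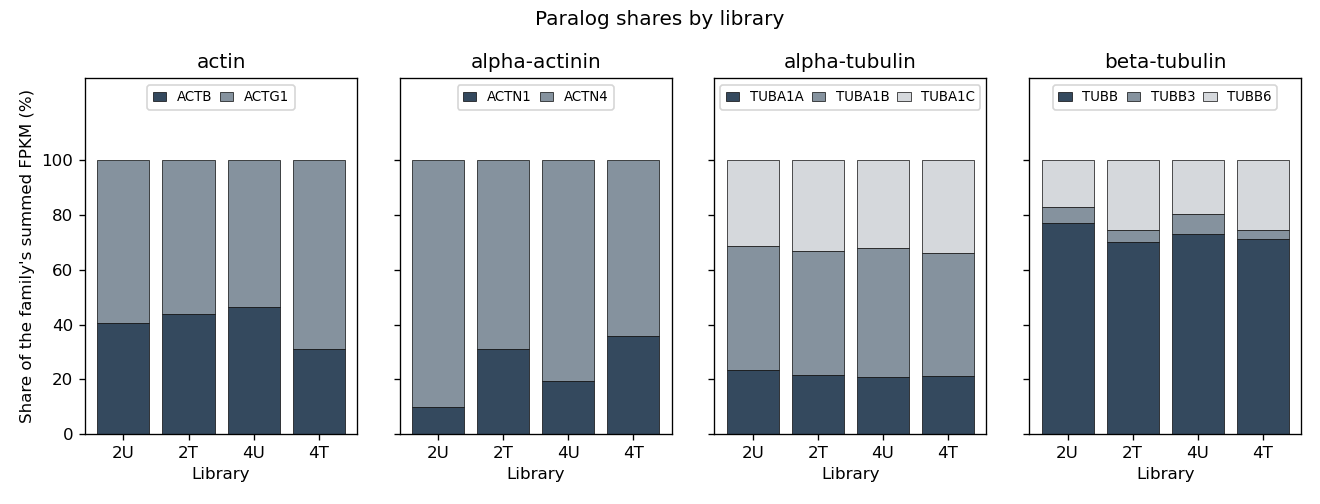
Share of each paralog (stacked bars, percent) in the summed FPKM of its family in the 4 libraries. The alpha-tubulin shares stay within 2.88 percentage points for each gene, whereas ACTN1 ranges from 10.0 to 35.7% and TUBB6 from 17.0 to 25.5%.

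The other isotypes were added to see what the chosen genes leave out. TUBB2C (now TUBB4B), a beta-tubulin of most tissues, had 2001 FPKM in 2U and 1192 in 2T, then 2027 in 4U and 1116 in 4T, and it took 25.3 to 39.0% of all listed beta-tubulins. Both treated libraries were below both untreated ones, as they were for TUBB2A, TUBB2B and TUBB4, with log2 ratios of -0.33 to -0.82 at 2 h and -0.73 to -0.95 at 4 h over the 4 genes. TUBB2A and TUBB2B are 98.1% identical in coding sequence, so many reads fit both. Of the 17 other tubulins, 8 could be compared at 2 h and 9 at 4 h, and 0 were past 2-fold in either direction, where 17.5% and 17.2% of all genes were at 2 h and 15% and 25% at 4 h. The gamma-tubulin TUBG1, which nucleates microtubules, was listed at 0 in both 2-h libraries, and its values at 4 h were 151 FPKM untreated and 99.3 FPKM treated. An exact 0 can be a failed estimate, so no change was read from it. TUBG2 was at 34.6 to 43.6 FPKM in all 4 libraries. TUBAL3, TUBD1 and TUBE1 were listed at 0 in all.

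Of the other actins, ACTG2, the gamma-actin of smooth muscle, had 2.91 FPKM in 2U and 89.1 in 2T, then 32.7 in 4U and 87.7 in 4T. ACTA1, the skeletal muscle actin, was at 0.519, 11.5, 3.93 and 14.1 FPKM in the same order. Both were lowest in 2U and higher in the treated library at both times, at levels far below ACTB and ACTG1. Of their reference windows, 20.8% of ACTG2 and 27.0% of ACTA1 lay within 2 mismatches of another gene. ACTA2, the smooth muscle alpha-actin, was at 27.4, 32.2, 18.5 and 32.7 FPKM and was not lowest in 2U. With all 7 listed actins in the total, ACTB and ACTG1 still took 97.5 to 98.8% of it. ACTN2 and ACTN3, the alpha-actinins of muscle, were listed at 0 in all 4 libraries.

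Actins and tubulins work with many partner proteins, whose genes were counted as lists. Of the 20 genes of actin filament turnover that could be compared at 2 h, 7 were higher in 2T by at least 2-fold (17.5% of all genes were) and 4 were lower (17.2% of all genes were), with a median log2 ratio of 0.49 beside -0.03 over all genes. At 4 h, 5 of 21 were higher and 2 were lower, beside 15% and 25% of all genes, with a median of 0.42 beside -0.31. Centred on the median of all genes, the 5 became 10. Centring shifts the ratios of all genes alike, and the percent of all genes after it is not given here. CFL1 had 1238 FPKM in 2U and 3349 in 2T, then 3034 in 4U and 3594 in 4T, and so had 2U as its lowest library, as the actins did. PFN1, which loads actin with ATP, was lower in both treated libraries, with 4617 FPKM in 2T beside 6616 in 2U, and 4475 in 4T beside 6219 in 4U. TMSB10, which binds actin monomers, was highest in 2U, at 11364 FPKM against 4231 to 5740 FPKM in the others. CAPG, which caps filament ends, ranged from 188 FPKM in 2U to 400.3 FPKM in 4U.

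The Arp2/3 complex, which branches actin filaments, had members at both ends of the list. ARPC5 was at 4.45 FPKM in 2U against 26.6 in 2T, and at 5.64 in 4U against 28.1 in 4T. ACTR3 was at 5.45 and 5.24 FPKM in the untreated libraries and at 21.8 and 21.2 FPKM in the treated ones. ARPC4 had the other order, with 29.96 and 38.6 FPKM untreated against 12.2 and 9.46 FPKM treated, and so had WDR1, a cofactor of cofilin, with 107 and 71.1 FPKM against 30.8 and 19.4 FPKM. ARPC5, ACTR3, ARPC4 and WDR1 were named because their ratios were the highest and the lowest of the list.

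Of the contractile and adhesion genes, 5 of 22 were higher and 4 lower at 2 h, and 6 of 24 were higher and 7 lower at 4 h, beside 17.5% and 17.2% of all genes at 2 h and 15% and 25% at 4 h. TAGLN2, an actin-bundling protein, had 251 FPKM in 2U and 2275 in 2T, then 1962 in 4U and 1968 in 4T, with 2U again alone at the bottom. MYL6, a myosin light chain, was also lowest in 2U, with a smaller gap, at 1314 FPKM in 2U and 2115 to 2177 FPKM in the others. ZYX, a protein of focal adhesions, was at 296 FPKM in 2U and 189 in 4U against 48.3 in 2T and 31.5 in 4T. MYL9, a light chain of smooth muscle and non-muscle myosin, was at 53.3 FPKM in 2U and 22.0 in 4U against 7.37 in 2T and 11.2 in 4T. CNN3, a calponin, was at 2.51 FPKM in 2U against 10.9 in 2T, and at 3.72 in 4U against 8.95 in 4T. TPM2 lay between 529 and 832 FPKM, and TPM1, a tropomyosin, was also listed at 0 in both 2-h libraries, with 375 FPKM in 4U against 1362 in 4T.

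SRF itself had 12.0 FPKM in 2U and 4.07 in 2T, then 11.8 in 4U and 6.58 in 4T, lower in both treated libraries. Its coactivator MKL1 was at 0.546, 0.832, 2.20 and 0.781 FPKM in the same order, and MKL2 and MYOCD were listed at 0 in all. The SRF motif was looked for after the levels were seen, because 2U was the lowest library for ACTB, ACTG1 and ACTN1, so its matches are no independent evidence. RefSeq promoters (GRCh38.p14, 250 bases before to 50 after the start) were matched for 9 of the 10 genes (not ACTB), 18 promoters in all. The CArG box, searched by its consensus on both strands, was in the ACTG1 promoter and in 1 of the 4 ACTN1 promoters, and in none of the tubulin promoters or the ACTN4 promoters. It was in 1.29% of 35116 promoters. The 250 bases before the ACTG1 start, chr17:81512800-81513049 (GRCh38.p14, minus strand), are shown with the CArG box, 94 to 85 bases before the start, in capitals.
ACTG1 promoter: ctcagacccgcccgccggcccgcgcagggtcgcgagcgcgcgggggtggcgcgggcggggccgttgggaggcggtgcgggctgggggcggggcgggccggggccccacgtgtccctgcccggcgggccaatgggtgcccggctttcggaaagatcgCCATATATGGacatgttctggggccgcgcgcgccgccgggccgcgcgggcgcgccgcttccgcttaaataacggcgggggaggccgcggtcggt
The letters GGGCGG, a GC box, were in 10 of the 18 promoters and in 45.0% of all, and CCAAT was in 9 of 18 and in 34.6% of all. TATAAA was in 1 of 18 and in 11.5% of all. A match says that the letters are there and does not show binding.

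Of the genes that fold or modify tubulin, 3 of 12 were higher and 0 lower at 2 h, and 3 of 14 were higher and 3 lower at 4 h, where the same shares of all genes apply. Centring took the 3 that were higher at 4 h to 5, but those shares of all genes are from ratios that were not centred. TBCA, a chaperone of beta-tubulin, was at 18.4 FPKM in 2U against 61.8 in 2T, and at 41.2 in 4U against 74.8 in 4T. PFDN5, a subunit of the prefoldin that hands new actin and tubulin to the folding machine, was highest in 2U at 825 FPKM against 499 to 572 FPKM in the others. TBCB, a chaperone of alpha-tubulin, differed little, at 162 to 207 FPKM. PFDN1, another prefoldin subunit, was at 50.1 and 49.3 FPKM untreated against 88.5 and 90.3 FPKM treated. Of the 2 genes with the highest ratios, PFDN6 was at 4.76 and 2.63 FPKM untreated against 10.9 and 7.76 FPKM treated, and TBCE was at 1.001 FPKM in 2U against 3.22 in 2T, and at 2.31 in 4U against 4.85 in 4T. The 2 with the lowest ratios were TBCD and HDAC6. TBCD was at 10.6 and 9.53 FPKM untreated against 5.46 and 2.69 FPKM treated, and HDAC6, which takes the acetyl group off alpha-tubulin, was at 3.93 and 4.57 FPKM against 2.12 and 1.60 FPKM.

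Of the genes that bind microtubules, 1 of 9 was higher and 1 lower at 2 h, and 3 of 10 were higher and 4 lower at 4 h, read against the same shares of all genes. Centring took the 4 that were lower to 2 and left 3 higher, again without a percent of all genes after centring. STMN1 (stathmin), which holds free tubulin dimers, was at 536 FPKM in 2U against 1765 in 2T, and at 761 in 4U against 1982 in 4T. MAPRE1, which tracks growing ends, was at 14.7 and 9.21 FPKM against 21.5 and 23.3 FPKM. MAP1S had the other order, with 10.6 and 13.9 FPKM untreated against 4.998 and 2.80 FPKM treated, and so had MAP4, with 8.29 and 10.3 FPKM against 6.50 and 3.79 FPKM. DYNLL1, a dynein light chain, was at 632, 600.3, 337 and 769 FPKM in 2U, 2T, 4U and 4T, and DCTN1, of the dynein partner dynactin, at 16.9, 19.99, 19.9 and 8.22 FPKM.

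The last question was how even the 10 genes were over the 4 libraries, as is asked of reference genes. The SD of log2 FPKM over the 4 libraries, which are 4 conditions and not replicates, was 0.159 for TUBA1C, 0.194 for TUBB, 0.218 for TUBA1B, 0.251 for TUBB6 and 0.270 for TUBA1A. It was 0.472 for ACTN4, 0.490 for TUBB3, 0.854 for ACTB, 0.892 for ACTG1 and 1.09 for ACTN1. The median SD was 0.371 for the 10 genes, 0.235 for the 6 tubulins and 0.490 for those 1562 genes that reached 10 FPKM in each library. Among those genes TUBA1C lay at percentile 5.06, TUBB at 7.81 and TUBA1B at 10.1, counted from the most even, whereas ACTB lay at 85.6 and ACTG1 at 87.4. Among the 450 genes that reached 100 FPKM in each library, whose median SD was 0.415, these 5 lay at 8.22, 13.1, 15.8, 93.1 and 94.2. The most even members were thus tubulins and the least even were actins and ACTN1. Not all tubulins were even, as TUBB3 shows. Outside the members the SD was 0.466 for TUBB2C and 0.369 for TUBB2A, but 0.130 for TUBA8 and 0.159 for TUBG2.

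Of 20 genes often used as references, 19 were above 0 in all 4 libraries, and these had a median SD of 0.502. Ranked with the 10 members by SD, TUBA1C came first of 29, TUBB second and TUBA1B the third. RPL13A, a ribosomal protein, followed TUBB6 with 0.251. GAPDH, of glycolysis, was in place 18 with 0.529, ACTB in place 23, ACTG1 in place 25, ACTN1 in place 28 and the elongation factor EEF1A1 last with 1.56. GAPDH had 19177 FPKM in 2U and 43767 in 2T, then 36197 in 4U and 38022 in 4T. GAPDH, RPLP0, HPRT1, PGK1 and EEF1A1 were lowest in 2U, as the actins were, and SDHA and RPL13A were highest there, as TUBA1A, TUBA1B, TUBA1C and TUBB were. The 11 genes marked "HKG" in the table, ACTG1 among them, had a median SD of 0.892.

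Much of this order rested on 2U. Without that library the SD was 0.177 for ACTB, 0.337 for ACTG1 and 0.0894 for ACTN1, and 0.0327 for TUBA1C and 0.0616 for TUBB. It was then 0.285 for TUBB6, 0.510 for TUBB3 and 0.537 for ACTN4, which were not lower than before. The SD of ACTN4 was 0.143 without 4U in place of 0.472, and that of TUBB3 was 0.322 without 4T in place of 0.490. The median SD without 2U was 0.149 for the 10 genes, 0.265 for the 19 reference genes and 0.424 for the 1562 genes. By the paper's library statistics, 2U had the lowest percent of qualified reads of the mRNA libraries, though not the fewest qualified reads. What set 2U apart was not tested.

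**Figure D5:**
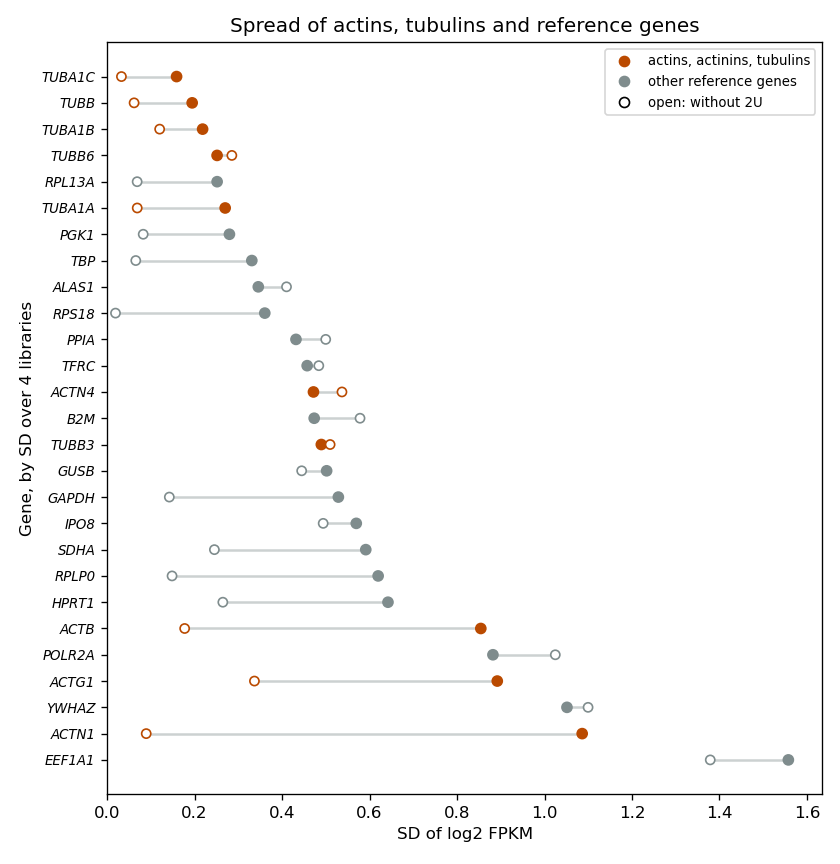
SD of log2 FPKM (x axis) of the 10 genes (orange) and 17 of the 19 ranked reference genes (grey; the other 2 are not reported here), ordered by the SD over the 4 libraries (filled points), with the SD without 2U (open points). TUBA1C is the most even at 0.159, and ACTB moves from 0.854 to 0.177 without 2U.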

How the data were processed

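Poly(A) RNA of SK-HEP-1 cells was sequenced on a SOLiD 3, with libraries made after a protocol for single cells. Reads were aligned to hg19 by the authors with Bowtie (the submitters' processing notes name TopHat) and 2 mismatches. The paper gives a read length of 35 bases in a passage that goes on to the miRNA steps, and none for the mRNA libraries alone. That length was taken for the mRNA reads here. Levels per gene were computed by the authors with Cufflinks and deposited as FPKM. How multiply mapped reads were divided, and the annotation, are not given in the sources used here. The study lists mapped reads per library, but the reads behind a single FPKM value were not computed, and no interval is given. Low values of 2U and 2T fell on shared steps, so their relative depth could be read, but pairs with a 4-h library showed hardly any such step, and whole reads were not recovered. Columns of the table were mapped to libraries by label, 0 columns of values were unused, and a column of marks and stray spreadsheet errors were not used as values. The miRNA tables of the series were not used here.

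Log2 ratios of FPKM were taken without pseudocount over genes with at least 1 FPKM in both libraries, and 2-fold counts were set beside the same percent of all those genes. Counts under the alternatives have no such percent beside them. With 1 library per condition no test was run. Alternatives were TPM, median centring, upper quartile and reference gene scaling, a pseudocount of 1, other filters, 1.5-fold, all isotypes in the shares, pairwise SDs and leaving out each library. The background at 100 FPKM, the genes marked in the table, the shared windows, the counts of separated libraries, the time comparisons under the scalings, the centred list counts and the promoter motif search were added after seeing the data. The members and lists were chosen with earlier results of these data known. Named were all members, other isotypes and reference genes, and of each other list the 4 most abundant genes and the 2 highest and 2 lowest by mean ratio, plus the 3 nearest profiles to the summed actins and tubulins. Text names those with a result to tell, and some reference genes are not reported here. Positions and transcripts are from GENCODE on GRCh37 (the same assembly as hg19), promoters from RefSeq on GRCh38.p14. Windows were matched with bwa 0.7.19. Other steps used Python 3.11.15, numpy 2.4.6, pandas 2.3.3 and matplotlib 3.10.9. Ratios and window matching were tested on simulated data.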

Additional observations from a re-analysis of the deposited data

Results flagged for a closer look

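In 2 genes the treated library was above the untreated one at 2 h and below it at 4 h, each on 1 pair of libraries, and the difference between the times was not tested. For ACTB the log2 ratio was 1.82 at 2 h and -0.27 at 4 h, a difference of -2.09. The sign at 4 h turned when ratios were centred on the median of all genes. For ACTN4 the log2 ratio was 0.19 at 2 h and -1.04 at 4 h, a difference of -1.23. ACTB was lowest in 2U and ACTN4 highest in 4U, so each difference rests on an untreated library.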

How the results depend on the processing

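The median log2 ratio of the 10 genes moved by less than 1.5-fold under every scaling, pseudocount and filter tried, but its sign turned. At 2 h it went from -0.06 to 0.01 under reference gene scaling and to -0.30 with the minimum of 10 FPKM, and at 4 h from -0.10 to 0.15 under the upper quartile and 0.21 under median centring. At 2 h 3 members were past 2-fold under each of these except the minimum of 10 FPKM, which removes ACTN1 and leaves 2. At 4 h the count of 2 became 1 under TPM and with the pseudocount of 1, and 0 under the upper quartile and under median centring, since ACTN4 and TUBB3 lay at the edge of 2-fold. The count of members with both treated libraries below both untreated ones was 4, and became 2 under TPM, 1 under the upper quartile and under median centring, and 5 under reference gene scaling. That of members with both above was 3, and became 2 under reference gene scaling and 4 under median centring. The median of all genes at 4 h shifted by 0.31 (log2) under median centring, 0.25 under the upper quartile and -0.20 under reference gene scaling. Of 138 single log2 ratios 137 stayed within 1.5-fold, and the exception was ACTN1 at 2 h with the pseudocount (1.62 in place of 2.21). This was largely set in advance, since each scaling added the same shift below 1.5-fold to all genes and the filters left a gene's ratio unchanged. Only the pseudocount could move a single ratio that far. Signs at 4 h still turned under some settings for ACTB, ACTN1, TUBA1A, TUBA1B, TUBA1C and TUBB. With all listed isotypes in the total, the mean TUBB3 share was 3.41% in place of 5.19%. The median SD was 0.149 without 2U and up to 0.445 without another library, and as a mean pairwise SD it was 0.681 in place of 0.371. Centring at 4 h took the genes of actin turnover that were higher from 5 to 10, of tubulin folding from 3 to 5 and reference genes from 3 to 5, and the microtubule-binding genes that were lower from 4 to 2. Scaling and centring shift all genes of a library alike, and no share of all genes under them is given here. These changes in counts are therefore not read as particular to the members or lists. No block by replicate could be fitted because the conditions share a single replicate number. A fit with treatment and time as terms, in which the times stand in for replicates, was not run. The absent replicates and the shared windows limit the values here.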
